A study of Mus musculus with 5 samples.

Results

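The 10 genes described here decide what mitochondria do with pyruvate. They are the 4 pyruvate dehydrogenase kinases (Pdk1, Pdk2, Pdk3 and Pdk4), the 5 subunits of the pyruvate dehydrogenase complex (Pdha1, Pdhb, Dlat, Pdhx and Dld) and pyruvate carboxylase (Pcx). They were chosen by name: every non-control probe whose gene name on the array is one of these symbols was taken, which gave 14 of 39429 probes and 10 of 31896 gene names. Their expression was measured in MIN6, a mouse insulinoma line that secretes insulin and commonly stands in for pancreatic beta cells. The cultures were given exosomes, small vesicles released by cells, that were collected by ultracentrifugation from the medium of dissected mouse muscle. The EXO-STD vesicles (2 arrays) came from muscle of mice kept on a standard diet and the EXO-HP vesicles (3 arrays) from muscle of mice kept on a high fat diet. Both groups thus received muscle vesicles, and the comparison is between diets of the donor mice. Mouse strain and age, vesicle dose, length of treatment and the number of donor mice are not given in the labels. The samples are titled biological replicates, but no label names separate cultures or vesicle preparations, so p-values here measure only the sample-to-sample spread, which may be partly technical.

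Pyruvate made by glycolysis enters the mitochondrion and has a pair of main fates there. The pyruvate dehydrogenase complex converts it to acetyl-CoA, which is burned in the citric acid cycle, and pyruvate carboxylase converts it to oxaloacetate, which refills that cycle. The kinases phosphorylate the complex on its Pdha1 subunit and so switch it off, and dedicated phosphatases switch it back on. Beta cells are known for using both fates when glucose rises, with high pyruvate carboxylase activity and little lactate production.

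Each sample was hybridised to 1 array of a 1-colour Agilent mouse design. All values below are normalised log2 signals: the log2 processed intensity minus the 75th percentile of its array, so that 0 is that percentile. Slide 1 held both EXO-STD arrays and EXO-HP replicate 1, and slide 2 held the other EXO-HP arrays, so a comparison within a slide is possible for slide 1 only. Between 71.8% and 74.0% of spots were well above background on slide 1, against 81.6% and 91.6% on slide 2. All 15 beta cell markers examined were well above background on all 5 arrays. Of 15 skeletal muscle markers, the tissue the vesicles came from, 8 were well above background on all 5 arrays. The summed level of all 15 was -0.06 to 0.27 in EXO-STD and 0.36 to 1.62 in EXO-HP. The median log2 difference of the tested muscle markers was 0.54, beside 0.07 for all tested probes. It was 0.50 for adipocyte, 0.46 for acinar and duct and 0.25 for macrophage markers, so a positive median was not particular to muscle. For beta cell, fibroblast and endothelial, and alpha, delta and PP cell markers it was 0.14, 0.12 and 0.02. Some tested markers passed the filter through EXO-HP arrays alone, such as Mylpf, Adipoq, Cpa1, Amy2a5 and Dcn. This selection favours higher EXO-HP values, so the medians of their lists cannot by themselves show a rise. Myh1, Myh4, Mylpf, Myl1 and Casq1 were not well above background on either EXO-STD array. The part of these muscle transcripts in the results below was not tested. In bulk RNA, fewer cells of a type and less RNA per cell cannot be told apart.

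The promoters of the kinase genes are shown because these genes are known to be switched by different inputs, namely low oxygen for Pdk1 and, for Pdk4, fasting through PPAR and FoxO factors. The sequences are from RefSeq on GRCm38.p6, run from 250 bases before to 50 bases after the annotated start, and are written on the gene's own strand. Capitals mark ACGTG or GCGTG on either strand, the core letters bound by hypoxia-inducible factors. Pdk1 and Pdk2 have 2 entries each, and the first entry is shown. The windows are chr2:71872974-71873273 on the plus strand for Pdk1, chr11:95041322-95041621 on the minus strand for Pdk2, chrX:93832101-93832400 on the minus strand for Pdk3 and chr6:5496229-5496528 on the minus strand for Pdk4.
Pdk1: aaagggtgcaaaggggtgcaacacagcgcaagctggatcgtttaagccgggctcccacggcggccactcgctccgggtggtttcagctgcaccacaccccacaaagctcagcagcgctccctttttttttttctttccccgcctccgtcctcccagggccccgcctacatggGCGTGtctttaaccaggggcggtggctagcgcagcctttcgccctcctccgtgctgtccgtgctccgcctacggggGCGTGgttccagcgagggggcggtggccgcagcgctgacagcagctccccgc
Pdk2: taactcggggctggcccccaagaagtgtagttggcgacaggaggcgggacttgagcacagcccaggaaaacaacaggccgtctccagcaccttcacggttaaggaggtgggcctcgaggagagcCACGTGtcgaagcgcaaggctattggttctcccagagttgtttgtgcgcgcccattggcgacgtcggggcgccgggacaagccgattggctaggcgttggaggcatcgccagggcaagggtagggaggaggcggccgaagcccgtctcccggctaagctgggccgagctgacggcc
Pdk3: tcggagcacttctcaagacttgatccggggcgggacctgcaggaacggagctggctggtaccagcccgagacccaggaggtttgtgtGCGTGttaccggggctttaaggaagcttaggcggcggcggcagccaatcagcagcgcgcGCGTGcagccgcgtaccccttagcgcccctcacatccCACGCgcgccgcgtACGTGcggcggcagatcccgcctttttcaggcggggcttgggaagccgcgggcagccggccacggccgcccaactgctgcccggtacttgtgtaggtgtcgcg
Pdk4: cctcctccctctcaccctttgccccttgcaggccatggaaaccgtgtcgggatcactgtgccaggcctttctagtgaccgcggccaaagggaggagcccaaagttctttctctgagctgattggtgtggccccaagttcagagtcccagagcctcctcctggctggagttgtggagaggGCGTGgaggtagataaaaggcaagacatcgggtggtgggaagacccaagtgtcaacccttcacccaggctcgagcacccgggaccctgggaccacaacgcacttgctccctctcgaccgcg
The Pdk1 window held 2 matches, both GCGTG, which begin 78 and 2 bases before the start. The Pdk3 window held 4 matches and the Pdk4 window 1. The Pdk2 window held the 6 letters CACGTG, the E-box, which reads as ACGTG on both strands and so counts as 2 overlapping matches at 1 place. All 10 genes were matched to the promoter table, with 13 windows in all, and 8 of the 13 held at least 1 match. Among 32851 promoter windows of the same length, 43.8% held at least 1 match and 8.93% held 3 or more, so such a match is common. CACGTG was found in 2 of the 13 windows, those of Pdk2 and Pcx, against 7.15% of all windows. The FoxO letters GTAAACA (3.65% of all windows), the estrogen-related receptor letters TCAAGGTCA (0.423%) and the PPAR direct repeat (0.0396%) were found in 0 of the 13, each searched on both strands.

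Among the kinases, Pdk1 had the lowest unadjusted p. It encodes the isoform best known as a target of hypoxia-inducible factor. Its probe (chr2:71739688-71739747 on mm9, plus strand, as the array design places it) read -1.11 and -1.59 in EXO-STD and -2.17, -1.76 and -2.24 in EXO-HP. All 3 EXO-HP arrays lay below both EXO-STD arrays, and EXO-STD replicate 2 and EXO-HP replicate 2 were the nearest pair. The means were -1.35 ± 0.35 (SD, n = 2) and -2.06 ± 0.26 (SD, n = 3). The log2 difference was -0.71 ± 0.26 (SE), a 1.63-fold lower signal, with a 95% interval from -1.37 to -0.05. In limma the unadjusted p was 0.0394 and the p adjusted over all tested probes was 0.89, so Pdk1 did not pass the threshold of 0.05. The exact permutation p was 0.2, the smallest that 2 against 3 arrays can give. Within slide 1, which holds 1 EXO-HP array, the difference was -0.82 ± 0.38 (SE). Without EXO-STD replicate 1, the brighter of the EXO-STD arrays for Pdk1, it was -0.46, which moves the value by over 1.5 times.

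Pdk3, an isoform that resists inhibition by pyruvate, was close to equal in the group means. It read -0.82 and -1.37 in EXO-STD and -1.05, -0.79 and -1.32 in EXO-HP (chrX:91010227-91010286 on mm9, minus strand). The groups overlapped fully, with EXO-STD replicate 2 the lowest array and EXO-HP replicate 2 the highest. The log2 difference was 0.04 ± 0.28 (SE), with a 95% interval from -0.65 to 0.73, and its sign turned to -0.14 when arrays were scaled to their median.

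Pdk2, the most widely expressed isoform across tissues, was measured by 2 probes that did not give the same difference. The probe with the higher signal (chr11:94887669-94887728 on mm9, minus strand) read -2.89 and -2.79 in EXO-STD and -2.74, -3.01 and -2.92 in EXO-HP. These 5 values spanned 0.27, and the log2 difference was -0.05 ± 0.20 (SE), with a 95% interval from -0.54 to 0.44. The other probe, placed at 94887980-94888039 of the same chromosome, read -3.81 and -3.52 in EXO-STD and -3.74, -2.83 and -3.20 in EXO-HP. It was higher on the slide 2 arrays only, and its log2 difference was 0.41 ± 0.32 (SE). Within slide 1 the 2 probes gave 0.10 and -0.07.

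Pdk4, the isoform induced by fasting and fatty acids in muscle and heart, was barely above the array background in these cells. Its probe (chr6:5433441-5433500 on mm9, minus strand) read -8.33 and -4.45 in EXO-STD and -6.20, -6.24 and -6.12 in EXO-HP. It was well above background on 3 arrays, namely EXO-STD replicate 2 and both slide 2 arrays, and the value of EXO-STD replicate 1 is a surrogate that the scanner software wrote for a spot not above background. The 3 EXO-HP arrays were close together and lay between the EXO-STD arrays, which were far apart. The log2 difference was 0.20 ± 1.08 (SE), with a 95% interval from -2.48 to 2.88. It was -1.74 without EXO-STD replicate 1 and 2.14 without EXO-STD replicate 2. It turned negative with quantile normalisation (-0.49) and in the deposited value table (-0.10). It was also negative (-0.07) with normexp background correction followed by quantile normalisation, an alternative called normexp below. These arrays give no usable estimate of a Pdk4 change.

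**Figure D1:**
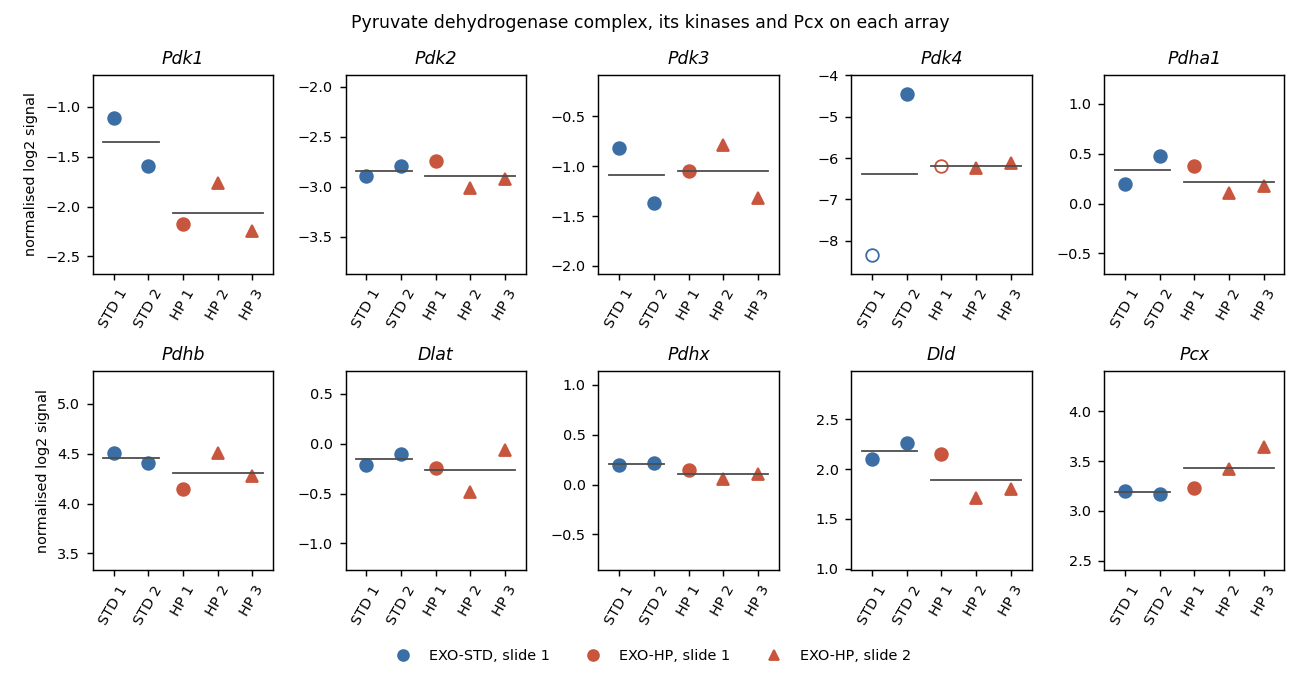
Normalised log2 signal (vertical axis; 0 is the array's 75th percentile) of the probe that stands for each of the 10 genes, on the 5 arrays. Blue points are EXO-STD and red points EXO-HP, circles are slide 1 and triangles slide 2, open symbols were not well above background, and lines are group means. In the Pdk1 panel the EXO-HP points lie below both EXO-STD points, and in the Pdk4 panel the EXO-STD points are at -8.33 and -4.45.

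The catalytic and structural subunits of the complex differed between groups by at most 0.29 on the log2 scale. Pdha1, the X-linked alpha subunit that carries the sites phosphorylated by the kinases, read 0.20 and 0.48 in EXO-STD and 0.38, 0.11 and 0.18 in EXO-HP (chrX:156560665-156560724 on mm9, minus strand). The groups overlapped, and the log2 difference was -0.12 ± 0.21 (SE), with a 95% interval from -0.64 to 0.40. Pdhb, its beta partner in the decarboxylase, read 4.51 and 4.41 in EXO-STD and 4.15, 4.51 and 4.28 in EXO-HP with the probe of highest signal (chr14:8998548-8998607 on mm9, minus strand). That difference was -0.15 ± 0.21 (SE), and the other 2 Pdhb probes gave -0.22 ± 0.24 (SE) and -0.04 ± 0.32 (SE).

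Dlat, the acetyltransferase that forms the core of the complex and carries its lipoyl arms, read -0.21 and -0.10 in EXO-STD and -0.24, -0.48 and -0.06 in EXO-HP (chr9:50442953-50443012 on mm9, minus strand). The highest and lowest of these arrays were both EXO-HP, and the log2 difference was -0.11 ± 0.21 (SE). Pdhx, which tethers the dehydrogenase Dld to that core, read 0.20 and 0.22 in EXO-STD and 0.15, 0.06 and 0.11 in EXO-HP (chr2:102861330-102861389 on mm9, minus strand). The groups did not overlap, yet all 5 arrays lay within 0.16, and the log2 difference was -0.10 ± 0.18 (SE), with a 95% interval from -0.56 to 0.35 and an exact permutation p of 0.2.

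Dld, the dihydrolipoamide dehydrogenase that the complex shares with other 2-oxoacid dehydrogenases, had the largest difference among the subunits. It read 2.10 and 2.26 in EXO-STD and 2.15, 1.71 and 1.80 in EXO-HP (chr12:32016889-32016948 on mm9, minus strand). EXO-HP replicate 1 lay between the EXO-STD arrays, and the slide 2 arrays lay below them. The log2 difference was -0.29 ± 0.22 (SE), with a 95% interval from -0.85 to 0.27, and it was -0.03 ± 0.28 (SE) within slide 1. The second Dld probe gave -0.20 ± 0.26 (SE) over all arrays and 0.11 within slide 1.

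Pcx, a biotin enzyme and the entry point of pyruvate into oxaloacetate, was the only one of the 10 genes whose EXO-HP arrays all lay above both EXO-STD arrays. It read 3.20 and 3.17 in EXO-STD and 3.23, 3.42 and 3.64 in EXO-HP (chr19:4621610-4621669 on mm9, plus strand). The means were 3.19 ± 0.02 (SD, n = 2) and 3.43 ± 0.20 (SD, n = 3). EXO-HP replicate 1 was barely above the higher EXO-STD array, whereas the slide 2 arrays were further up. The log2 difference was 0.24 ± 0.21 (SE), with a 95% interval from -0.29 to 0.77, and the limma p adjusted over all probes was 1. Within slide 1 it was 0.04 ± 0.28 (SE), and with median scaling 0.07.

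**Figure D2:**
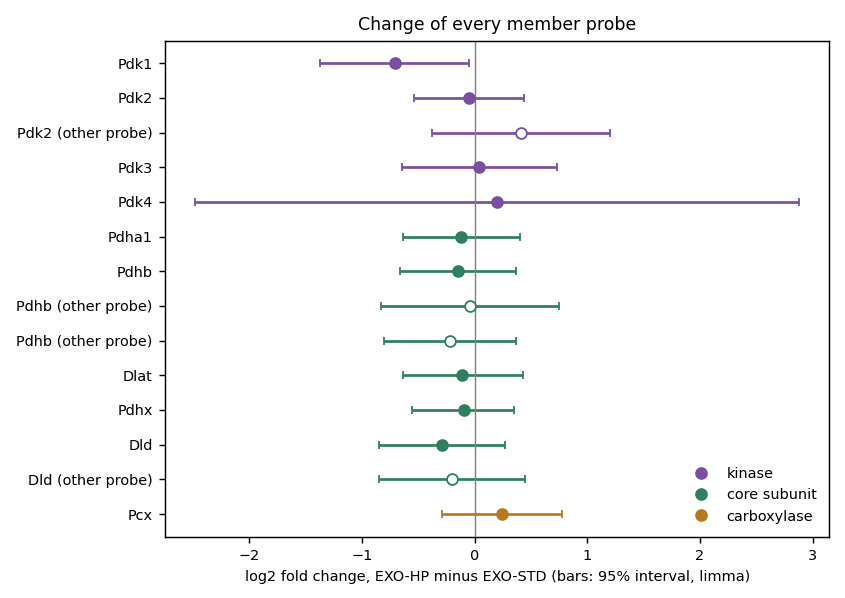
Log2 fold change, EXO-HP minus EXO-STD (horizontal axis), for each of the 14 probes, coloured by role, with bars for the 95% interval from limma and open symbols for a gene's further probes. The interval of Pdk1 ends at -0.05, all other intervals include 0, and that of Pdk4 runs from -2.48 to 2.88.

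In limma, 0 of the 10 genes passed an adjusted p of 0.05, as did 0 of all 31943 tested probes (0%). At an unadjusted limma p under 0.05, 1 of the 10 genes was lower and 0 were higher, beside 0.238% of all probes lower and 5.36% higher (5.6% in either direction). The groups did not overlap for 3 of the 10, of which 2 were lower, beside 17.8% of all probes (2.76% lower and 15.1% higher). Of the 10 genes, 9 were well above background on all 5 arrays. By sign alone 7 of the 10 were lower in EXO-HP, beside 37.2% of all probes, and their median log2 difference was -0.11 beside 0.07 for all genes. The median over all probes was 0.07, and -0.10 after median scaling. Relative to the median of all probes, 8 of the 10 genes were lower under each of the 5 scalings and backgrounds run. The share of all probes below 0 was 64.2% with median scaling and 53.1% to 54.5% with the others, where 8 of the 10 genes were below 0. Within slide 1, 5 of the 10 were lower by sign, and 6 to 8 were when any 1 array was left out.

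The members also differed in how they were placed on single arrays. EXO-HP replicate 1 lay below both EXO-STD arrays for 4 of the 10 genes, and EXO-HP replicates 2 and 3 for 6 each. Over all tested probes the same was true of 20.6%, 21.9% and 22.3%. Relative to the EXO-STD mean, the median of the 5 subunits was -0.06, -0.23 and -0.16 on the EXO-HP arrays, and that of the 4 kinases was 0.07, -0.01 and -0.16.

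Isoform balance was compared as the log2 ratio of 2 probes on the same array, which a constant shift of a whole array does not change. Quantile normalisation, which is also part of the normexp alternative, can change such a ratio. Each ratio is given relative to its EXO-STD mean, because signals of different probes cannot be ranked. Of 7 pairs tested, 0 passed an adjusted exact permutation p of 0.05, which 2 against 3 arrays cannot reach. Pdk1 over Pdk3 read -0.03 and 0.03 in EXO-STD and -0.87, -0.71 and -0.66 in EXO-HP. All EXO-HP ratios were lower, the spread within groups was small (SD 0.05 and 0.11), and the difference was -0.75 (exact permutation p = 0.2, adjusted over the pairs 0.56). This ratio stayed between -0.79 and -0.69 when any 1 array was left out, and it was -0.87 on slide 1 alone, -0.60 with normexp and -0.65 in the deposited value table.

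Pdk1 over Pdk2, taken with the Pdk2 probe of higher signal, had a difference of -0.66, with overlapping groups. This difference was -0.37 without EXO-STD replicate 1, -0.30 with normexp and -0.31 in the deposited value table. The other Pdk2 probe, whose own log2 difference was 0.41, was not used in a ratio, so the overlap holds for the probe used only. Pdk1 over Pdha1, the kinase against its substrate, had a difference of -0.59, also with overlapping groups. It was -0.21 without EXO-STD replicate 1, -0.97 without EXO-STD replicate 2, -0.33 with normexp and -0.37 in the deposited value table. Pcx over Pdk1 read -0.23 and 0.23 in EXO-STD and 0.86, 0.65 and 1.34 in EXO-HP, all EXO-HP arrays being higher, with a difference of 0.95 (exact permutation p = 0.2, adjusted 0.56). The difference was 0.68 with normexp and 0.71 in the deposited value table. In both, the exact permutation p was 0.4, so the groups overlapped there. It ran from 0.72 to 1.18 when any 1 array was left out. Pcx over Pdha1, the carboxylase against the dehydrogenase, differed by 0.36 with overlapping groups. That difference was 0.00 on slide 1 alone, 0.21 without EXO-STD replicate 2, 0.54 without EXO-HP replicate 1 and 0.23 without EXO-HP replicate 3. Pdk2 over Pdk3, again with the Pdk2 probe of higher signal only, differed by -0.09. Pdk1 over Pdk4 differed by -0.91, with the EXO-STD arrays at 2.19 and -2.19.

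**Figure D3:**
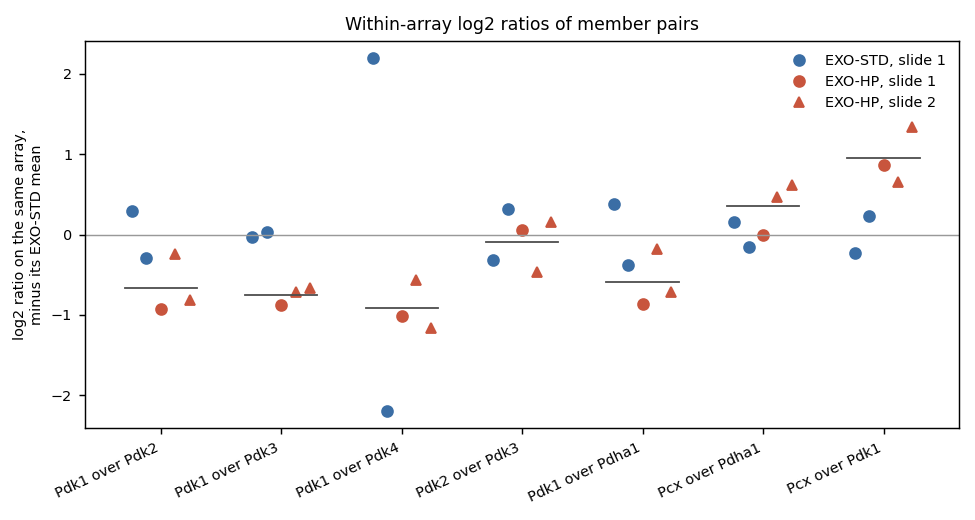
Within-array log2 ratios of 7 pairs of genes under the main processing, each gene by its probe of highest signal. Each ratio is shown minus its EXO-STD mean (vertical axis), with 1 point per array. Blue is EXO-STD, red is EXO-HP, circles are slide 1, triangles are slide 2, and the dark line is the EXO-HP mean. Pdk1 over Pdk3 is lower on all 3 EXO-HP arrays (-0.87 to -0.66), and Pcx over Pdk1 is higher on all 3 (0.65 to 1.34).

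Pdk1 was set beside other genes known to be induced by low oxygen. Of the 21 tested, 17 were lower by sign in EXO-HP (37.2% of all probes were) and 4 higher, with a median log2 difference of -0.38 beside 0.07 for all genes. In limma, 0 of the 21 passed the adjusted threshold, 5 had an unadjusted p under 0.05, all of them lower, and 9 had EXO-HP arrays all below both EXO-STD arrays. Over all probes, 0.238% were lower at that p and 2.76% had EXO-HP arrays all below. The list was chosen with earlier results of these data known, so its counts are a description and not a test. Ak4, a mitochondrial adenylate kinase, read -1.88 and -2.83 in EXO-STD and -4.66, -4.38 and -4.15 in EXO-HP, a log2 difference of -2.04 ± 0.34 (SE). Ldha, which turns pyruvate into lactate, differed by -1.88 ± 0.61 (SE). Slc16a3, a lactate exporter, differed by -1.28 ± 0.42 (SE) and Bnip3, a mitophagy receptor, by -0.92 ± 0.27 (SE), with its other 2 probes at -1.07 and -0.37. As with Pdk1, EXO-STD replicate 1 was above EXO-STD replicate 2 for all 4 of these genes. The list median relative to the EXO-STD mean was 0.27 and -0.27 on the EXO-STD arrays and -0.41, -0.35 and -0.33 on the EXO-HP arrays. The list's median difference was -0.41 within slide 1 and -0.23 without EXO-STD replicate 1, which moves it by over 1.5 times. Egln1, Car9, Ddit4 and Pfkfb4 were the 4 that were higher by sign, with differences of 0.20, 0.24, 0.04 and 0.14.

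**Figure D4:**
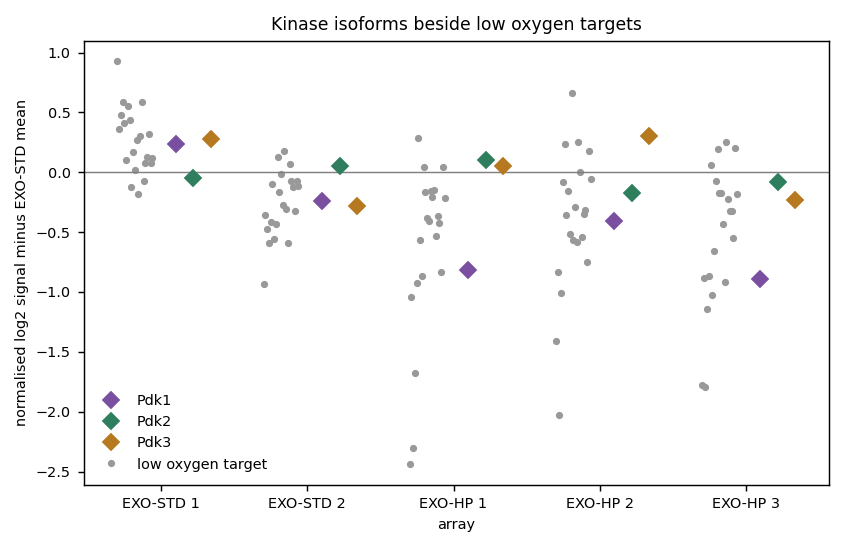
Normalised log2 signal minus the EXO-STD mean (vertical axis) on each of the 5 arrays for 21 low oxygen targets (grey points) and for Pdk1, Pdk2 and Pdk3 (diamonds). Pdk1 lies at -0.82, -0.41 and -0.89 on the EXO-HP arrays, and Pdk2 (probe of higher signal) and Pdk3 lie between -0.23 and 0.30 there. The other Pdk2 probe is not drawn, and it read -3.74, -2.83 and -3.20 in EXO-HP against an EXO-STD mean of -3.67.

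The regulators of the kinase genes gave no common direction, with 6 of 12 tested higher and 6 lower and a median of -0.01. Epas1, a hypoxia-inducible factor subunit, had a log2 difference of 0.37 ± 0.20 (SE), while its other tested probe gave -0.52. Ppara, a fatty acid sensor that drives Pdk4 in other tissues, differed by 0.34 ± 0.19 (SE), and its further probes gave -0.01 and 0.05. Among 15 genes known as PPAR targets, 8 were higher and 7 lower, with a median of 0.06. Fabp3, a fatty acid binding protein, differed by 0.55 ± 0.23 (SE), and its second probe gave 0.19. In limma 0 of these genes passed the adjusted threshold.

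The phosphatases that reactivate the complex were measured beside the kinases. Pdp1 differed by 0.19 ± 0.29 (SE) and Pdp2 by 0.00 ± 0.31 (SE). Further probes gave -0.11 and 0.11 for Pdp1 and 0.44 for Pdp2. Pdpr, the regulatory subunit, was well above background on only 1 array and was not tested. Of the genes that supply pyruvate, the carrier subunits Mpc1 and Mpc2 differed by -0.20 ± 0.42 (SE) and -0.16 ± 0.35 (SE). The pyruvate kinases Pkm and Pklr differed by 0.01 ± 0.22 (SE) and 0.40 ± 0.24 (SE). Each of these intervals included 0.

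Genes that share cofactors or architecture with the complex were likewise spread around 0. Of 8 genes for thiamine supply and lipoylation, 5 were higher and 3 lower, with a median of 0.06. The thiamine transporter Slc19a3 differed by 0.73 ± 0.60 (SE) and its relative Slc19a2 by -0.10 ± 0.19 (SE). Slc19a3 read -4.86 and -6.80 in EXO-STD and was well above background on only 1 of these arrays, and its other probe was not tested. Of 11 genes of the sister 2-oxoacid and glycine dehydrogenases, several of which use Dld, 4 were higher and 7 lower, with a median of -0.07. In that list Dhtkd1 differed by -0.36 ± 0.27 (SE) and Gldc by 0.24 ± 0.21 (SE).

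Pcx was likewise set beside the other biotin enzymes and beside the cycles its product feeds. Of 8 biotin enzyme genes, 3 were higher and 5 lower, with a median of -0.09. The acetyl-CoA carboxylase Acacb differed by 0.46 ± 0.28 (SE) and Mccc2, of leucine breakdown, by -0.18 ± 0.24 (SE). Of 17 genes of pyruvate cycling and citrate metabolism, 7 were higher and 10 lower, with a median of -0.01. Slc25a1, the citrate carrier, differed by 0.24 ± 0.28 (SE). In limma 0 genes of these 4 lists passed the adjusted threshold.

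Genes with the array profile most like that of Pdk1 were found among 21790 genes well above background on all 5 arrays, by the root mean square difference of profiles centred on their own means. The 5 closest were Fkbp11 (0.05), Gm9461 (0.095), Gm8966 (0.127), Aurkb (0.13) and Aldoa (0.139), against a median of 0.48 over all candidates. Gm9461 and Gm8966 are predicted genes, so their probes may read other transcripts. For Pcx the closest included Plekhm2 (0.029), Neo1 and Nf1 (0.031 each) and Trp53i11 (0.032), against a median of 0.29. With 5 arrays and this many candidates, these likenesses only describe the samples at hand.

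**Figure D5:**
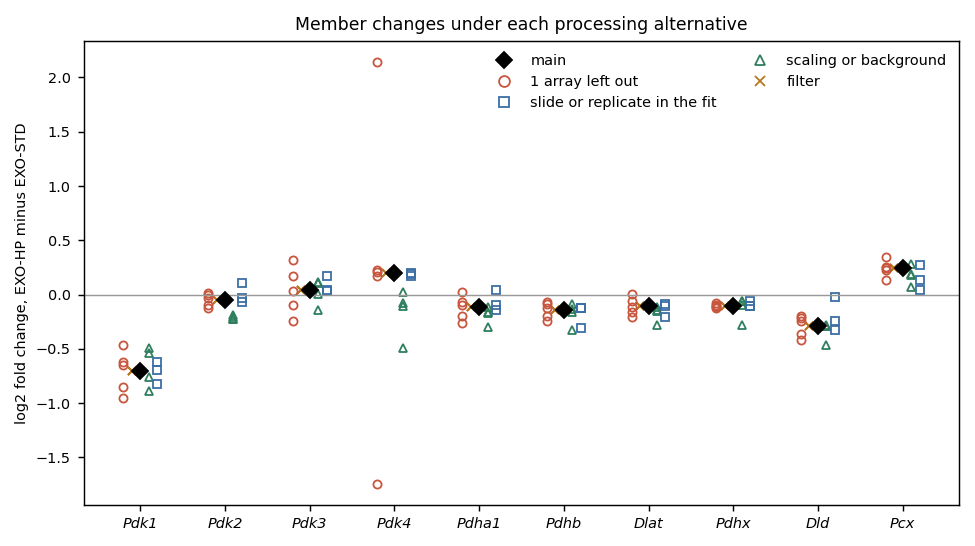
Log2 fold change, EXO-HP minus EXO-STD (vertical axis), of the 10 genes under the main processing (black diamonds) and each alternative (other symbols, by kind). Pdk1 lies between -0.95 and -0.46 and Pcx between 0.04 and 0.34 under every alternative run, whereas Pdk4 runs from -1.74 to 2.14.

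Across the 15 refits with other processing, the Pdk1 difference kept its sign in 15 of 15, and its lowest adjusted limma p was 0.657. Its unadjusted limma p was above 0.05 in 8 of the 15, among them normexp (0.0753), the deposited value table (0.0858) and slide as a fixed block (0.0866). With slide as a random block the unadjusted limma p was 0.0365. The Pcx difference also kept its sign in 15 of 15, with a lowest adjusted limma p of 0.897. Pdhb (brightest probe), Pdhx and Dld (brightest probe) stayed below 0 in 15 of 15 each. The signs of Pdk2, Pdk3, Pdk4, Pdha1 and Dlat each turned under at least 1 refit.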

How the data were processed

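Gene expression was measured in 5 samples of MIN6 cells on 1-colour arrays, with Cy3-labelled cRNA made from 0.1 µg of RNA, per the labels' protocols. The deposited scanner tables hold spot intensity values which, per the file headers, come from Feature Extraction 10.7.3.1 after background subtraction, with surrogate values where a spot was not above background. Agilent Feature Extraction 9.1 and limma are named in the submitters' processing notes. The deposited value table holds log2 values with a median of 7.93 on each array, whose ranks equalled those of mean signal minus local background. Its scaling by the authors is not stated, and it served as an alternative.

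After removal of outlier spots, log2 processed intensities were averaged per probe and set relative to the 75th percentile of their array. A probe was tested if it had a usable spot on every array (110 had not) and was well above background on 2 or more arrays of either group (7376 were not), which left 31943. The number of arrays limits the precision: the median standard error of a log2 difference was 0.27. The comparison used lmFit and eBayes of limma 3.58.1 under R 4.3.3 (no covariates, 3 residual and 2.59 prior degrees of freedom) and Benjamini-Hochberg adjustment over all tested probes. The probe of highest mean signal stands for a gene. The fit was tested on simulated data. Positions of probes follow the array design (mm9, per the file headers), and exon or UTR annotation was not used here. Named genes are all 10 members with every probe, the 2 members of each list with the smallest p (all where a list has up to 4), Ldha, Bnip3, Ak4 and Slc16a3 beside Pdk1, and the 5 genes most like Pdk1 and Pcx. Some genes that this rule names are not reported here. The 4 low oxygen targets that were higher were named after their values were seen. The members and lists were chosen with earlier results of these data known. Alternatives covered scaling, background, filters, slide, replicate block and each array left out.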

Additional observations from a re-analysis of the deposited data

How the results depend on the processing

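The count of member genes past the limma threshold was 0 under all 15 refits, and the count over all probes was 0 to 3 when 1 array was left out (3 without EXO-STD replicate 1, none of them a member) and 0 under every other refit. Over the 14 member probes, 192 of 209 refitted differences kept their sign, and 6 probes kept it throughout. Median scaling turned Pdk3 to -0.14. Quantile normalisation, normexp and the deposited value table turned Pdk4 to -0.49, -0.07 and -0.10. Slide as a fixed block, which leaves the contrast within slide 1, turned Pdk2 to 0.10 (other probe -0.07), Pdha1 to 0.04, the Pdhb probe A_55_P1969775 to 0.35 and the second Dld probe to 0.11. The mean of both Pdk2 probes gave 0.18. Leaving out 1 array gave ranges of -1.74 to 2.14 for Pdk4, -0.24 to 0.32 for Pdk3, -0.26 to 0.02 for Pdha1, -0.28 to 0.20 for Pdhb probe A_55_P1969775, -0.13 to 0.01 for Pdk2 and -0.21 to 0.00 for Dlat. The ratio of Pdk1 over Pdk4 ran from -3.10 to 1.28 when 1 array was left out (1.28 without EXO-STD replicate 1), and that of Pdk2 over Pdk3 from -0.41 to 0.24 (0.24 without EXO-STD replicate 2, 0.10 without EXO-HP replicate 2), with 0.06 on slide 1 alone. The cause was not tested.

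The list medians changed sign in 29 of 135 refits, spread over 8 of the 9 lists, and the low oxygen list stayed between -0.55 and -0.23. The number of probes at an unadjusted limma p under 0.05 was 1788, of which 95.7% were higher. It was 1291 (83.9% higher) with median scaling, 867 (74.6%) with quantile normalisation, 487 (66.5%) with normexp, 631 (73.2%) in the deposited value table, 1079 with the filter on all 5 arrays and 843 (59.1%) with slide as a fixed block. It was 3411 without EXO-HP replicate 1, 1138 without EXO-HP replicate 2 and 950 without EXO-HP replicate 3. The deviations of same-numbered samples had correlations of 0.02 and -0.06. With 2 EXO-STD arrays, the deviations of 1 mirror those of the other, so this check cannot decide whether the numbers pair samples. With the replicate block, 0 probes passed the threshold, 1649 had an unadjusted p under 0.05 in limma, and Pdk1 stood at -0.62. Signal over background limits Pdk4, Pdpr and Slc19a3.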

Other observations

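Several fast muscle transcripts stood highest on EXO-HP replicate 1. Of the 15 muscle markers, 9 were highest on that array. The other 6, namely the myosin heavy chains Myh1, Myh2 and Myh4 with Mylpf, Pygm and Casq1, were highest on EXO-HP replicate 2. Some leads were small, as for Atp2a1, which read -0.65, -0.75 and -0.67 on the EXO-HP arrays. The share of all probes highest on each array is not given here, so these counts are only a description. Tnnc2, a troponin subunit, read -2.78 and -2.70 in EXO-STD and -1.12, -2.93 and -3.31 in EXO-HP. Acta1, skeletal actin, read -4.39 and -4.19 in EXO-STD and -2.25, -2.83 and -4.74 in EXO-HP, and Tnni2 and Tnnt3 were also highest on EXO-HP replicate 1. Myl1, a myosin light chain of fast muscle, read -8.30 and -7.84 in EXO-STD and -0.40, -8.76 and -8.26 in EXO-HP, and was well above background on EXO-HP replicate 1 only. These genes were named after their values were seen. On that array Pdk1 read -2.17 and Pdk4 was not well above background.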
